A study of Mus musculus with 8 samples.

Results

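The regions described here are the ends of the mouse genes named Zfp and a number, which encode zinc finger proteins. All protein-coding genes with such a symbol were taken from RefSeq's gene table for GRCm38.p6 (mm10), leaving out Zfp36, which encodes an RNA-binding protein of another kind. This gave 366 genes among the 21631 coding genes of the autosomes and the X chromosome. A window of 1 kb on each side of both ends of each gene was scored, 732 windows in all. A gene was called clustered when another Zfp gene lay within 100 kb, which held for 212 genes in 52 runs of neighbours, and single otherwise, which held for 154 genes.

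The study comprises 8 samples of dendritic cells from the mouse, of which 6 are ChIP-seq samples of IRF3, IRF5 or IRF9 from stimulated cells, not analysed here. The values below come from the group of unstimulated, CD8-positive dendritic cells, profiled in 2 replicates by ATAC-seq, in which a transposase cuts and tags accessible DNA in nuclei. These cells had no stimulation, no genotype is labelled, and the labels name both a cell line and the spleen as their source. Nothing in the labels says that the replicates came from separate cultures, so differences between them may be technical.

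Each replicate has its own list of peaks, 50950 in replicate 1 and 58319 in replicate 2. A shared region is a merged stretch that holds overlapping peaks of both replicates, and there were 44365 of them. Fold enrichment is the authors' own value for a peak, the reads at its summit over the local background of the same library. No summit with fewer than 7 reads was listed in replicate 1 or fewer than 9 in replicate 2. Replicate 2 was about 1.89 times as deep, as inferred from the lowest local background in each list (0.676 and 1.28 reads), not from read totals. A window without a peak thus held nothing detectable at this depth and is not shown to be closed. Among 12 marker genes of CD8-positive dendritic cells, a shared region lay at an end of 7, Xcr1, Irf8, Flt3, Cd24a, Tlr3, Itgax and Cadm1, while Clec9a, Batf3, Itgae, Cd8a and Zbtb46 had none. This share (58.3%, exact 95% interval 27.7 to 84.8) is near the 47.8% of all coding genes, so these counts do not check the cell type. Of the marker genes found in the annotation, a shared region lay at an end of 1 of 5 for T cells, 1 of 5 for B cells, 3 of 4 for macrophages and 1 of 4 for erythroid cells.

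Most Zfp genes encode C2H2 zinc finger proteins, whose tandem fingers each contact a few bases of DNA. Many of them also carry a KRAB domain, which recruits TRIM28 and through it the methyltransferase SETDB1, so that histone H3 is methylated at lysine 9 and the bound DNA, often a transposable element, is silenced. The family grew by tandem duplication, and many members therefore lie side by side in clusters. Other members work without KRAB, as activators, as structural regulators or in ubiquitin and SUMO pathways.

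The sequences of 9 members are given first because the comparisons of promoter sequence further on rest on letters that can be seen in them. Each is the stretch of 150 bases just before the annotated start, read 5′ to 3′ along the gene, from RefSeq on GRCm38.p6. The first set shows the 9-letter motif ACTACANTT, part of the site recognised by Zfp143 (human ZNF143), with its match on either strand in capitals. Zfp58 (chr13:67500523-67500672, minus strand), Zfp953 (chr13:67360573-67360722, minus), Zfp72 (chr13:74390830-74390979, minus), Zfp128 (chr7:12881028-12881177, plus) and Zfp933 (chr4:147848419-147848568, minus) are all clustered genes.
Zfp58: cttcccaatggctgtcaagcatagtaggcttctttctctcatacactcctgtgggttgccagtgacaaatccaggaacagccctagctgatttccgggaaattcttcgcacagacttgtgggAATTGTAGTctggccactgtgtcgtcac
Zfp953: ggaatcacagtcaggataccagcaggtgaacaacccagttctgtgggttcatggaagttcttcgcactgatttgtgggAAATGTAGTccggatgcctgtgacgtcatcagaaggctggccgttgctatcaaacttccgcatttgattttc
Zfp72: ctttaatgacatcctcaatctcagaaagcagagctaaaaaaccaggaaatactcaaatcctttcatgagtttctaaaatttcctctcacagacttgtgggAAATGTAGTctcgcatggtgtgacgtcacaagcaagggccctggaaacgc
Zfp128: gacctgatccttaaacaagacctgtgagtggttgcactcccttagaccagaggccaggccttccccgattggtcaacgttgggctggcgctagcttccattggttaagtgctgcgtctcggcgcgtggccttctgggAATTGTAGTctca
Zfp933: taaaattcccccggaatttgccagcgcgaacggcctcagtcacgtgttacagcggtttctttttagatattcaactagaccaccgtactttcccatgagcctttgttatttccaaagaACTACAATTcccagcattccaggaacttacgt
The match begins between positions -72 (Zfp953) and -13 (Zfp128) relative to the start, and in Zfp953 and Zfp72 it is followed by the cyclic AMP response element TGACGTCA. Zfp933 carries it in the opposite orientation.

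The second set shows how far member promoters differ in CG dinucleotides, which are in capitals. Zfp964 (chr8:69654406-69654555, plus strand) and Zfp691 (chr4:119174196-119174345, minus) had some of the strongest accessible starts. Zfp534 (chr4:147702632-147702781, minus) and Zfp981 (chr4:146514770-146514919, plus) lie in a stretch of chromosome 4 where few gene ends were accessible.
Zfp964: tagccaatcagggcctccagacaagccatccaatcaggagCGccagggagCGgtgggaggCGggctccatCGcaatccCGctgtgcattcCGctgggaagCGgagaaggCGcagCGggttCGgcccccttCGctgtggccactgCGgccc
Zfp691: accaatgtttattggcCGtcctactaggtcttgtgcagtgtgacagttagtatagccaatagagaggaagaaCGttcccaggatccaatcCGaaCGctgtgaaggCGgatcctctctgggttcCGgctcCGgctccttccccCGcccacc
Zfp534: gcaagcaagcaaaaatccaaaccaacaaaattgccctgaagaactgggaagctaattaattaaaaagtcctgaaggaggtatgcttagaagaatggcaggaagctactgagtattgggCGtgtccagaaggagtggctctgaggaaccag
Zfp981: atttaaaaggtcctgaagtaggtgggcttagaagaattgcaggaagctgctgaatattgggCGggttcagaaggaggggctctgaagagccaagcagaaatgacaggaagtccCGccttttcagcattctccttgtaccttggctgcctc
In the 300-base promoter window, which runs from 250 bases before to 50 bases after the start, Zfp964 holds 24 CG dinucleotides and Zfp691 holds 21. Zfp534 holds 3 and Zfp981 holds 4.

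Zfp gene ends were accessible more often than those of coding genes as a whole. In replicate 1, 245 of the 366 Zfp genes (66.9%) had a peak at an end, against 48.9% of all coding genes. In replicate 2 it was 248 (67.8%), against 50.3%. Shared regions lay at an end of 239 Zfp genes (65.3%, exact 95% interval 60.2 to 70.2), against 47.8% of all coding genes. The totals of the replicates differed by 3 genes, the net of 6 members with a peak in replicate 1 alone and 9 in replicate 2 alone. Their 2 shares lay far closer to each other than to the background. These intervals cover counting over genes only, and neighbouring genes are not independent. Another 21 members had no region at an end but 1 at an annotated start inside the gene, so that 260 of 366 (71.0%) had an accessible end or start, against 50.9% of all coding genes.

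Clustered and single Zfp genes were accessible in nearly equal shares. Among clustered genes 144 of 212 (67.9%) had a peak at an end in replicate 1, 146 (68.9%) in replicate 2 and 141 (66.5%, interval 59.7 to 72.8) a shared region. Among single genes it was 101 of 154 (65.6%), 102 (66.2%) and 98 (63.6%, interval 55.5 to 71.2). Single minus clustered, the difference was -2.34 percentage points in replicate 1, -2.63 in replicate 2 and -2.87 in shared regions. That gap is wider than the spread between replicates (SD 0.208 points, n = 2). Each share in shared regions lies inside the counting interval of the other, and no interval of the difference was computed. It changed direction when each run was counted as 1 unit, with single genes then higher by 0.696 points, and was -0.261 points without chromosome 7, which holds 89 members.

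**Figure D1:**
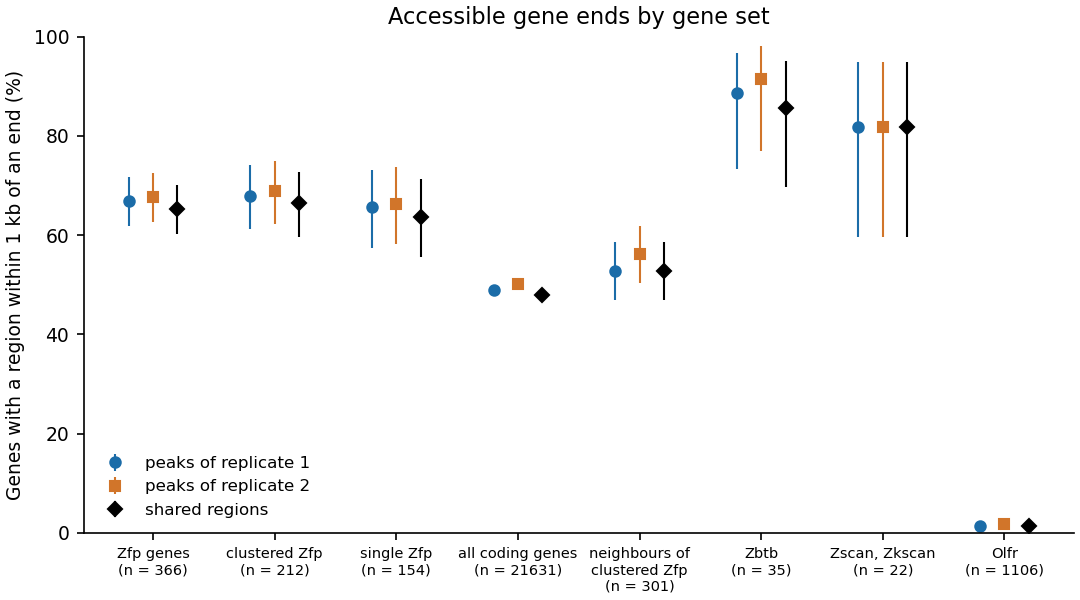
Percentage of genes with a region within 1 kb of an end, for peaks of replicate 1, peaks of replicate 2 and shared regions. Points are shares and bars are exact 95% intervals over genes; clustered and single Zfp genes both lie between 63.6% and 68.9%, above all coding genes at 47.8% to 50.3%, and olfactory receptor (Olfr) genes lie near 0.

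The share of accessible members showed no steady trend with run size, and runs of 5 or more stood highest. A shared region lay at an end of 27 of 46 genes (58.7%) in runs of 2, of 27 of 46 (58.7%) in runs of 3 or 4, and of 87 of 120 (72.5%) in runs of 5 or more, against 63.6% of single genes. In replicate 1 the shares were 58.7%, 60.9% and 74.2%, and in replicate 2 they were 67.4%, 60.9% and 72.5%, so the order of the smaller runs differed between replicates. Large runs lie mostly on a few chromosomes, so run size and chromosome cannot be told apart here. By chromosome, 35 of 41 members (85.4%) were accessible on chromosome 17, 13 of 16 (81.25%) on chromosome 5 and 20 of 25 (80%) on chromosome 8. It was 14 of 19 (73.7%) on chromosome 9, 62 of 89 (69.7%) on 7, 22 of 32 (68.8%) on 13 and 6 of 10 (60%) on 15. Lower were chromosomes 6 (10 of 17, 58.8%), 18 (6 of 11, 54.5%), 11 (9 of 17, 52.9%), 2 (11 of 24, 45.8%) and 4 (7 of 27, 25.9%). Chromosomes with fewer than 10 members are left out, and shares of all coding genes by chromosome are not given here.

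The accessible end was nearly always the start of the gene. For 304 members whose strand could be taken from the promoter table, the start end held a shared region in 202 (66.4%), against 46.2% of the coding genes with a strand. The other end held one in 12 (3.95%), against 7.03%. Start ends were accessible in 124 of 183 clustered genes (67.8%) and 78 of 121 single genes (64.5%). Other ends were accessible in 5 clustered (2.73%) and 7 single genes (5.79%). The 12 members with a region at the other end were Zfp652, Zfp174, Zfp13, Zfp318, Zfp687, Zfp512, Zfp78, Zfp329, Zfp541, Zfp771, Zfp791 and Zfp653. All were listed after their values were seen. Some of these ends adjoin the start of another member. The region at the other end of Zfp78 is also the start region of Zfp28, and the other end of Zfp174 lies beside an accessible annotated start of Zfp597.

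Some Zfp ends lie beside an end of another coding gene. Of 53 members with an end of another coding gene within 1 kb, 44 (83.0%) had a shared region at an end, against 73.1% of all coding genes in that situation. Of the 313 members without such a neighbour, 195 (62.3%) had one, against 39.4%. The interval of the first share, 70.2 to 91.9, holds its background, while that of the second, 56.7 to 67.7, lies above its own. The region was common to a pair of members in 6 cases, all clustered, so the 239 genes rest on 233 distinct regions.

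Regions at Zfp ends were of ordinary width and slightly higher fold enrichment than those of other genes. The strongest end region of each of the 239 genes reached a median fold enrichment of 8.94 (replicate 1) and 9.32 (replicate 2, the deeper library), against 8.10 and 8.42 for the 10348 coding genes with a shared end region. For the 141 clustered genes the medians were 9.35 and 9.98, and for the 98 single genes 8.53 and 8.76. Clustered genes were higher than single ones by a similar step in both replicates, while their values overlapped over most of their range. Median reads at the summit were 23 and 33 for clustered, 24 and 36 for single and 23 and 32 for all coding genes, so the higher ratio of the clustered genes did not go with more reads at the summit. The median width was 281 bp for clustered genes, 310 bp for single genes and 291 bp for all coding genes.

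**Figure D2:**
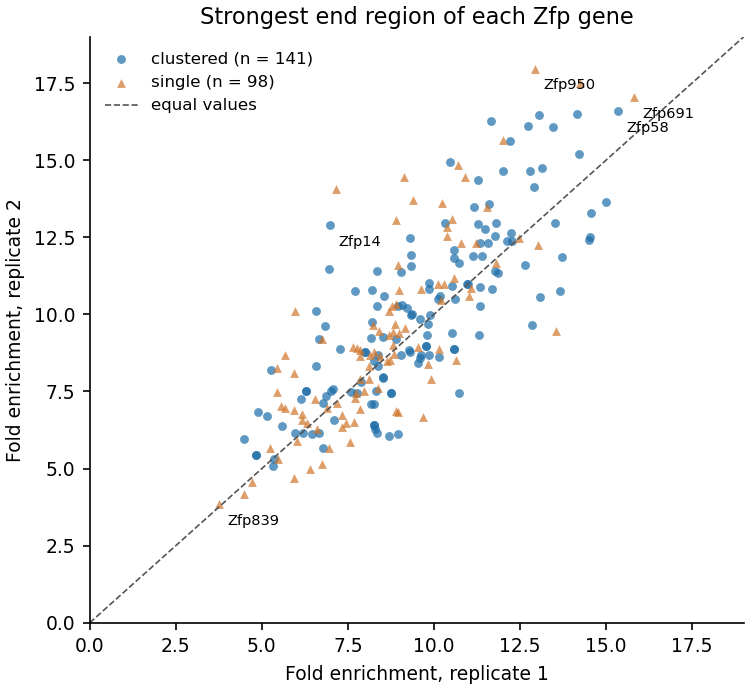
Fold enrichment of the strongest end region of each of the 239 accessible Zfp genes, replicate 1 against replicate 2, with clustered genes as circles, single genes as triangles and a dashed line of equal values. Values run from below 4 for Zfp839 to above 15 for Zfp58 and Zfp691, and clustered and single genes cover nearly the same range.

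Among single genes, Zfp691 had the strongest region by the lower of its replicate values. Replicate 1 gave it a fold enrichment of 15.8 and replicate 2 one of 17.1, at chr4:119174151-119174423, with 36 and 49 reads at the summit. Zfp938 followed with 14.2 and 17.5 at chr10:82241234-82241469, and Zfp950 with 12.9 and 18 at chr19:61140554-61140996. Both were higher in replicate 2, while Zfp958 was level at 12.5 and 12.5. The other 6 of the strongest 10 single genes, Zfp873, Zfp330, Zfp433, Zfp157, Zfp386 and Zfp930, lay between 10.9 and 13 in replicate 1 and between 11.7 and 15.6 in replicate 2. Zfp157 is a KRAB member studied in mammary gland development.

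Among clustered genes, Zfp58 was strongest, with 15.3 and 16.6 at chr13:67500209-67500679 and 35 and 49 reads. Its promoter is the first of those printed above. Zfp964 had 14.2 and 15.2 at chr8:69654279-69654647, Zfp799 had 14.2 and 16.5 at chr17:32830183-32830414, and Zfp101 had 15 and 13.7 at chr17:33394559-33394835. Zfp58 has 5 CG dinucleotides in its promoter window and Zfp964 has 24, so strong regions were found at promoters with few and with many of them. The remaining 6 of the top 10, Zfp120, Zfp935, Zfp748, Zfp975, Zfp994 and Zfp455, lay between 12.9 and 14.6 in replicate 1 and between 13 and 16.5 in replicate 2.

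The 5 weakest accessible ends belonged to 4 single genes and 1 clustered gene, and the 10 weakest to 5 of each. Zfp839 had a fold enrichment of 3.77 and 3.84, and Zfp276 of 4.47 and 4.17. Zfp553, the clustered gene among them, had 4.48 and 5.96. Zfp91, which encodes a ubiquitin ligase of NF-kappaB signalling, had 4.72 and 4.56 despite 36 and 52 reads at its summit, and Zfp592 had 5.94 and 4.69. In Zfp91 the read number was as high as at Zfp691, so its low ratio went with a high local background.

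The regions lay close to the annotated start. For 206 accessible members with a start in the promoter table, the region centre had a median position of 7.5 bp into the gene, and for all coding genes it was -5.5 bp. The centre was within 250 bp of the start in 102 of 125 clustered genes (81.6%) and 57 of 81 single genes (70.4%), against 69.6% of coding genes. Clustered genes thus had more of their regions near the start than single ones did in these lists.

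**Figure D3:**
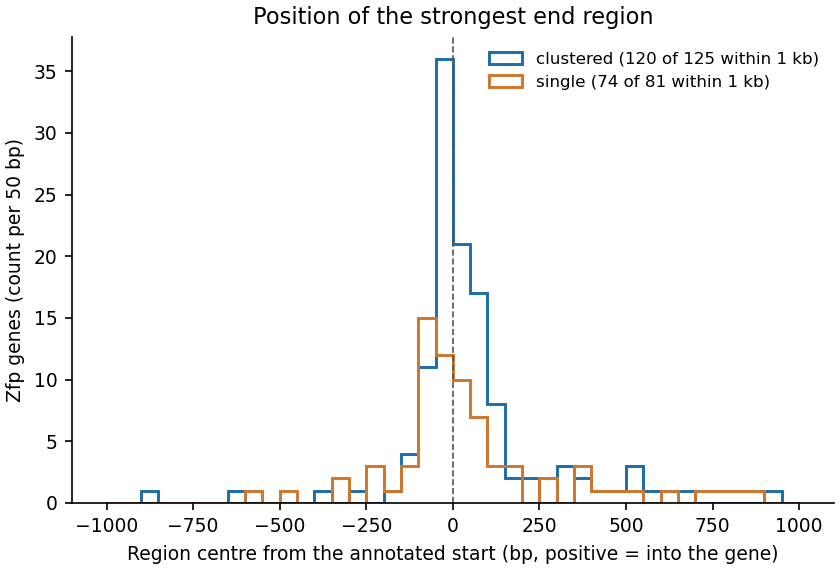
Distance of the centre of the strongest end region from the annotated start, in bp, with positive values inside the gene; lines count clustered and single Zfp genes per 50 bp. Of the genes with a start, 120 of 125 clustered and 74 of 81 single genes fall within 1 kb, and both lines peak at the start.

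Within the runs, members with and without accessible ends lay side by side. Of the 52 runs, 16 had a shared region at an end of every member, 8 at none and 28 at some. Among the 15 runs of 5 or more genes, 3 were accessible throughout: Zfp560 to Zfp846 on chromosome 9, Zfp868 to Zfp866 on chromosome 8 and Zfp738 to Zfp273 on chromosome 13, each of 5 genes. None of these 15 runs was without an accessible member. The lowest was the run from Zfp978 to Zfp933 on chromosome 4, with 1 of 9.

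**Figure D4:**
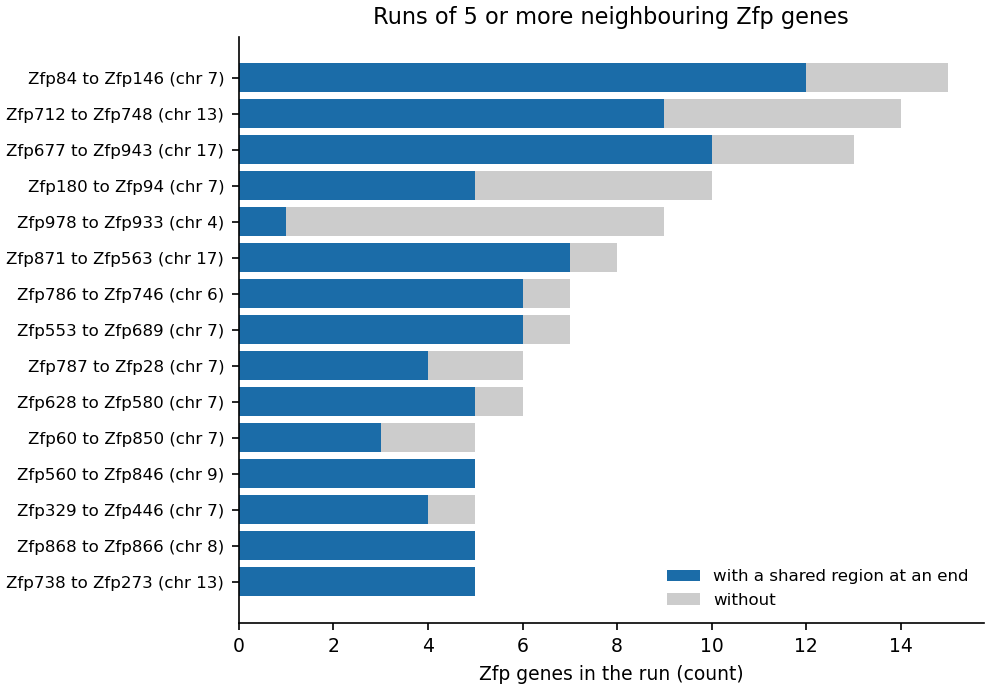
Runs of 5 or more neighbouring Zfp genes, 1 bar a run, with the number of genes with (blue) and without (grey) a shared region at an end. Most bars are largely blue, while the chromosome 4 run from Zfp978 to Zfp933 has 1 of 9.

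The largest run, at chr7:29768552-30169775, holds 15 genes from Zfp84 to Zfp146 in 401 kb, and 12 were accessible. It includes Zfp568, a KRAB member that represses a placental promoter of Igf2, with a fold enrichment of 9.85 and 10.8. Zfp420 had 11 and 11, Zfp146 had 9.83 and 9.67, Zfp84 had 8.38 and 8.32, Zfp74 had 8.00 and 8.77, and Zfp566 had 8.20 and 9.76. Zfp14 was the least even, at 6.98 with 12 reads and 12.9 with 30 reads. Zfp82, Zfp382, Zfp383, Zfp27 and Zfp260 were lower, between 5.59 and 7.09 in replicate 1 and between 6.15 and 7.35 in replicate 2. Zfp30, Zfp790 and Zfp940 had no shared region at an end, and Zfp940 had a peak in replicate 1 alone, of 6.27. Zfp790 had a region at an annotated start inside the gene. The run held 22 shared regions, of which 6 were at no coding gene end.

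The run at chr13:67038594-67553152, with 14 genes from Zfp712 to Zfp748 in 515 kb, had 9 accessible members with higher values. Beside Zfp58, Zfp748 had 13.1 and 14.8, Zfp455 had 12.9 and 14.1, Zfp429 had 12 and 14.6, Zfp87 had 11.4 and 11.9, and Zfp712 had 11.3 and 10.9. Zfp456 had 10.5 and 9.39, Zfp953 had 10.2 and 8.63, and Zfp457 had 8.35 and 11.4. The other 5, Zfp708, Zfp759, Zfp458, Zfp595 and Zfp459, had no region at an end. Of these, Zfp708, Zfp759, Zfp458 and Zfp595 had a region at an annotated start inside the gene. The run held 29 shared regions, 14 of them away from coding gene ends.

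The run at chr17:21383707-21994366, with 13 genes from Zfp677 to Zfp943 in 611 kb, had 10 accessible members. Zfp995 had 12.8 and 14.7, Zfp983 had 11.9 and 11.3, Zfp51 had 11.6 and 12.3, Zfp53 had 11.3 and 14.4, and Zfp677 had 11.3 and 9.34. Zfp942 and Zfp943 share a region of 9.76 and 8.97, Zfp54 had 8.35 and 10.3, Zfp948 had 7.88 and 7.80, and Zfp52 had 6.78 and 7.14. Zfp760, Zfp229 and Zfp820 are neighbours within the run, and the nearest shared region was 27207 bp, 50732 bp and 63790 bp from them. These 3 genes were flanked by accessible members on both sides.

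The 52 runs cover 8.49 Mb and held 323 shared regions, of which 222 (68.7%) lay at a coding gene end, against 29.1% (12881 of 44328) over the genome. Runs begin and end at genes and are dense in them, which fixes a high share at gene ends, so nothing is read from that difference. Away from coding ends the runs held 11.9 shared regions per Mb, from 8.92 in runs of 2 to 13 in runs of 5 or more, against 12.1 over the genome.

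A pair of stretches stood apart, and both were chosen after the values were seen. On chromosome 4, 16 Zfp genes from Zfp990 to Zfp933 (chr4:145510759-147849126, 2.34 Mb) had 1 member with a shared region at an end, Zfp933, with a fold enrichment of 8.20 and 10.8. Zfp982 and Zfp984 had a region at an annotated start inside the gene, which makes 3 of the 16 with an accessible end or start. The stretch held 8 shared regions, 3.42 per Mb against 17 over the genome, and Zfp534 and Zfp981 printed above lie in it. By gene ends alone, 6 of 11 members elsewhere on chromosome 4 were accessible, and 140 of 198 clustered genes outside this stretch.

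On chromosome 2, 9 Zfp genes from Zfp968 to Zfp931 (chr2:175372034-178078425, 2.71 Mb) had an accessible end in 3 cases in replicate 1 and 7 in replicate 2. Zfp968, Zfp970, Zfp971 and Zfp973 had a peak in replicate 2 alone. The 17 other coding genes of the stretch differed between replicates in the same direction, with 10 accessible in replicate 1 and 16 in replicate 2, and the stretch held 16 peaks in replicate 1 and 35 in replicate 2. The 2 replicates thus differed over the whole stretch rather than at the Zfp genes alone. The chromosome 4 stretch also held fewer peaks in replicate 1 (9) than in replicate 2 (18), while 1 of its Zfp genes had an accessible end in each. The part of depth and of read mapping in near-identical copies was not tested for either stretch.

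Members without a shared end region numbered 127. Of these, 112 had no peak at an end in either replicate, 6 had one in replicate 1 alone and 9 in replicate 2 alone. The strongest of the peaks in a single replicate were those of Zfp973 (10.5, with 23 reads), Zfp970 (8.78, 19 reads) and Zfp968 (8.78, 19 reads) in replicate 2, and of Zfp341 (7.76) and Zfp251 (7.04) in replicate 1. A shared region lay within 5 kb of 40 of the 127, and none within 50 kb of 34. Their median distance to one was 19310 bp, against 27209 bp for all coding genes without an end region. The farthest were Zfp352 (665940 bp), Zfp521 (564717 bp), Zfp993 (445478 bp), Zfp981 (434629 bp) and Zfp735 (386980 bp).

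Members of known role were accessible in 12 of 18 cases, close to the share of all members. Among repressors, Zfp809, which silences retroviruses that use the proline tRNA primer, had a fold enrichment of 8.54 and 10.6. Zfp57, which maintains methylation at imprinted regions, had no shared region at an end, the nearest being 3285 bp away. Zfp30, a KRAB member, had none within 13968 bp. Of the regulators of broad expression, Zfp143, an activator of many promoters, had 8.69 and 10.1. Zfp148 had 7.68 and 6.51, and Zfp281, which acts in embryonic stem cells, had 7.85 and 7.91.

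Members with roles in lymphocytes were also among the accessible ones. Zfp335, required for T cell maturation, had 7.43 and 6.49, and Zfp318, required for IgD expression in B cells, had 7.74 and 7.46 at the end away from its start, which was accessible as well. Of members in other pathways, Zfp451, a SUMO ligase, had 8.98 and 10.8, Zfp746 (PARIS) had 7.02 and 7.51, and Zfp207, a spindle protein, had 6.74 and 5.16. Zfp541, a meiotic regulator of the testis, had 5.48 and 5.32 at its far end and none at its start end. Its annotated start in the promoter table lies inside the gene and was accessible. Among the other members of known role, Zfp42, Zfp423, Zfp521 and Zfp217 had no shared region at an end. For Zfp42 (Rex1), a marker of pluripotent cells, the nearest was 44054 bp away, and for Zfp423, of preadipocytes, 136880 bp. For Zfp217 it was 2550 bp away, and this gene had an accessible annotated start inside it. No pattern by lineage is read from these genes, since Zfp281 and Zfp541 had a shared region at an end.

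Accessible promoters of Zfp genes held fewer CG dinucleotides than other accessible promoters. Promoter windows were given for 304 of the 366 members, 183 clustered and 121 single. The outermost annotated start, the 1 whose window is described here, was accessible in 219 of these (72.0%), against 48.0% of coding genes. Any annotated start was accessible in 224 (73.7%). The outermost start was accessible in 136 of 183 clustered (74.3%) and 83 of 121 single genes (68.6%). The median window held 15 CG dinucleotides in accessible members and 9 in the rest, against 22 and 4 in other coding genes. Accessible or not, the medians were close, 13 for members and 14 for all coding genes. Clustered members had a median of 11 and single members of 17.

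At promoters with few CG dinucleotides, Zfp starts were accessible more often than other coding starts, though less often than at richer Zfp promoters. With at most 9 of them, 63 of 106 Zfp starts (59.4%) were accessible, against 927 of 7167 other coding starts (12.9%). With 5 to 9, 56 of 79 Zfp starts (70.9%, interval 59.6 to 80.6) were accessible, against 553 of 2294 other coding starts (24.1%, interval 22.4 to 25.9). The same shares were 72.2% and 25.2% in replicate 1 and 75.9% and 26.8% in replicate 2, so the gap was far wider than the spread between replicates. Both classes of Zfp gene showed it, with 40 of 53 clustered (75.5%) and 16 of 26 single starts (61.5%). Leaving out the olfactory and vomeronasal receptor genes brought the other coding share to 24.5%. With 0 to 4 the shares were 7 of 27 (25.9%) and 7.67%, and with 20 or more they were close together, 68 of 83 (81.9%) and 78.7%. The bins were chosen after the values were seen.

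**Figure D5:**
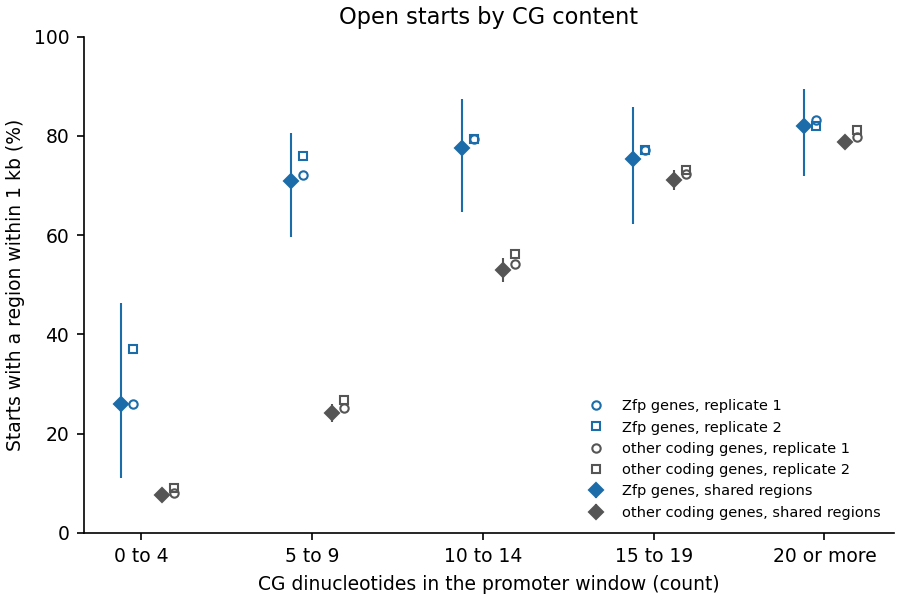
Percentage of annotated starts with a region within 1 kb, by the number of CG dinucleotides in the 300-base promoter window, for Zfp genes and other coding genes. Diamonds are shared regions with exact 95% intervals over genes and open symbols are the single replicates; between 5 and 9 the Zfp share is 70.9% and the other share 24.1%, and at 20 or more they are 81.9% and 78.7%.

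Motifs were counted on both strands of the 300-base windows of the 304 members and of 17274 coding genes. ACTACANTT, a form chosen after the values were seen, was found in 44 members (14.5%), against 1.99% of coding genes. It was in 41 of 183 clustered members (22.4%) and 3 of 121 single ones (2.48%), so its excess lay with clustered genes, which share ancestry and are not independent. Of the 44 members, 22 lay on chromosome 7 and 12 on chromosome 13, so the excess is not shown for clusters in general. In 42 of the 44 the motif began before the start. Its first base lay between positions -232 and 36 relative to the start, with a median of -53. The broader ACTACA, which it contains, was in 24.7% of members and 10.8% of coding genes. The stricter ACTACAATT was in 10 members (3.29%) against 0.55% of coding genes, and the full site with 2 more bases in 9 (2.96%) against 0.446%.

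Accessible starts held ACTACANTT in 37 of 219 members (16.9%) and the rest in 7 of 85 (8.24%). Among members with at most 9 CG dinucleotides, 15 of 18 with the motif were accessible (83.3%), and 48 of 88 without it (54.5%). Among other coding genes of that kind it was 23 of 81 with the motif (28.4%) and 904 of 7086 without (12.8%). Within that limit Zfp members were accessible more often than other genes whether or not the motif was there. The counts with the motif are small, and members with and without it were not matched for CG number within that limit. Zfp and other coding genes were not matched either. Of the 7167 other coding starts 4873 held 0 to 4 CG dinucleotides, against 27 of the 106 Zfp starts. These differences were not tested, and a match is not evidence that a factor was bound.

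Against all coding genes, other motifs differed less. The ETS core CCGGAAG was in 22.4% of members and 12.1% of coding genes, and the YY1 motif AAGATGGC in 5.59% and 3.23%. The GC box GGGCGG was in 44.1% and 46.9%, the NRF1 palindrome in 8.22% and 6.74%, the E box CACGTG in 7.89% and 8.01%, and the PU.1 motif GAGGAAGT in 3.95% and 3.17%. The TATA motif TATAAA was in 6.25% of members against 13.4%, the AP-1 motif TGANTCA in 3.29% against 7.09%, and a spaced pair of GAAA, as in interferon-stimulated response elements, in 2.63% against 3.43%. Many of these gaps changed when accessible starts alone were compared, members against other coding genes. There CCGGAAG was in 24.2% against 21.2%, AAGATGGC in 5.94% against 5.20% and TATAAA in 5.94% against 6.16%. GGGCGG was then in 47% against 68.2%, and the NRF1 palindrome in 8.22% against 12.2%. ACTACANTT was in 16.9% against 2.85%. The cyclic AMP response element TGACGTCA was in 9 members (2.96% against 2.36%), Zfp266, Zfp335, Zfp426, Zfp457, Zfp473, Zfp523, Zfp595, Zfp72 and Zfp953, and each of these 9 had an accessible start. The same held for 303 of 398 other coding genes with the motif (76.1%) and for 72.0% of all members with a window. The 9 were listed after their values were seen.

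The coding genes around the clusters were accessible less often than the Zfp genes between them. Of 301 other coding genes within 100 kb of a clustered Zfp gene, 159 (52.8%, interval 47.0 to 58.6) had a shared region at an end. This is near the 47.8% of all coding genes, which the interval holds. Among them, the gene models with a Gm name were accessible in 12 of 31 cases (38.7%) and those with other names in 147 of 270 (54.4%). Other zinc finger families had higher shares than the 65.3% of Zfp genes. Shared regions lay at an end of 30 of 35 Zbtb genes (85.7%, interval 69.7 to 95.2). Among Zscan and Zkscan genes it was 18 of 22 (81.8%, interval 59.7 to 94.8), an interval that holds the Zfp share. Olfactory receptor genes, which also lie in tandem clusters, were accessible in 16 of 1106 cases (1.45%).

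Genes on a list of repressors were mostly accessible. The list was drawn up around KRAB silencing and also holds chromatin factors of wider use, such as Suv39h1, Ehmt2, Atrx and Daxx. Of 25 listed genes 24 were found in the annotation, and 21 (87.5%, interval 67.6 to 97.3) were accessible at an end, against 47.8% of all coding genes. Trim28, the corepressor, had a fold enrichment of 6.56 and 7.32, and Setdb1, its methyltransferase, had 8.41 and 7.19. Mphosph8, a subunit of the HUSH complex, had 12.6 and 13.4, and Smarcad1, a chromatin remodeller, had 13.2 and 13.6. Chd3, Chd4 and Dnmt1 had none at an end, with the nearest shared region 1346, 1122 and 6794 bp away.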

How the data were processed

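Unstimulated CD8-positive dendritic cells were profiled by ATAC-seq in 2 replicates, each with its own deposited list of peaks. Per the submitters' processing notes, the tools were MACS2, HOMER 4.9.1, Picard 2.8.1, BWA 0.7.17 and Trimmomatic, and the build was mm10; read shift, duplicate handling and thresholds are not given in the sources used here. The deposited values are a fold enrichment (a ratio, each term with 1 added), −log10 p and −log10 q values, a score (10 times the −log10 q, as a whole number) and a summit position; the lowest deposited −log10 q was 3.00 in both lists.

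Summits of a peak were joined, and shared regions needed an overlap of 1 bp. Reads at a summit were worked out from the authors' fold enrichment and p, which came back within 0.002 for 100% of summits. Gene ends came from the RefSeq table of GRCm38.p6; strands, starts and promoters came from its promoter table. Intervals are exact (Clopper-Pearson, 95%). With 1 group of samples no test between groups could be made. The steps were checked on simulated data. A genome and protein sequences were not used here.

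The members, lists and rules were chosen with earlier results of these data known. Named genes were the 10 strongest single and clustered members, the 3 largest runs, the 5 weakest, the 5 farthest from a shared region, 18 of known role and the 5 strongest in 1 replicate. Alternatives changed the window, gap, overlap, strength, end and gene names. Python 3.11.15, numpy 2.4.6, pandas 2.3.3, scipy 1.17.1 and matplotlib 3.10.9 were used.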

Additional observations from a re-analysis of the deposited data

How the results depend on the processing

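The share of all Zfp genes with a shared region at an end ran from 48.9% to 69.9% over the settings tried. For all, clustered and single members it was 62.0%, 64.6% and 58.4% with windows of 500 bp, 69.9%, 71.2% and 68.2% with 2 kb, 60.4%, 60.8% and 59.7% with a reciprocal overlap of 50%, 69.4%, 70.3% and 68.2% with peaks of either replicate, and 48.9%, 51.4% and 45.5% with the better-scoring 50% of peaks. With the region centre inside the window it was 64.5% for all and 62.3% for single members, and with 27 genes of lettered Zfp names added it was 62.9% for single ones. Leaving out each replicate gave 66.9 to 67.8% for all, 67.9 to 68.9% for clustered and 65.6 to 66.2% for single members.

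The difference between single and clustered members, in percentage points, was -6.18 with 500 bp, -3.04 with 2 kb, -1.11 with reciprocal overlap, -2.10 with either replicate, -5.96 with the better peaks, -3.70 with centres and -3.94 with added names, and -2.63 to -2.34 without a replicate. It was -3.21 and -2.12 with cluster gaps of 50 and 200 kb, -3.27 with lettered neighbours counted, -3.30 for start ends and -4.95 without members near another coding end. It reversed to 0.696 with each run counted once and to 3.05 for the other ends, and was -1.36 for members with a strand and -0.261 without chromosome 7, both added after seeing the data. The cause of these changes was not tested. No paired analysis was possible because the results come from no test and there is 1 group of samples. Sites with fewer reads than the weakest listed summits cannot be seen at this depth.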
